A study of Mus musculus with 12 samples.

Results

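Histone acetyltransferases are the enzymes that place acetyl groups on histone lysines, and 10 genes that encode them were followed here as carriers of one such mark, H4K8ac (acetylation of lysine 8 of histone H4). The members were Ep300, Crebbp, Kat2a, Kat2b, Kat5, Kat6a, Kat6b, Kat7, Kat8 and Hat1. They were found by matching the gene name that the authors gave to each peak, and 143 of 269580 peaks belonged to these 10 of 23433 named genes. The mark had been mapped by ChIP-seq, the sequencing of DNA that an antibody pulls down with crosslinked chromatin, in oligodendrocyte progenitor cells, the glial cells that divide and give rise to myelin-forming oligodendrocytes. Cells came from the forebrain of PdgfrαH2BEGFP mice, whose nuclei fluoresce green under control of Pdgfra, and were sorted at postnatal day 5 (neonatal) or 60 (adult). All groups carried this reporter, and the labels name no treatment. There were 3 biological replicates at each age, and the number of animals in each is not given in the sources used here. The 6 input libraries of the series were not analysed here.

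Acetylation of the histone H4 tail loosens the hold of nucleosomes on DNA and is read by bromodomain proteins, so it is found mostly at active promoters and enhancers. Acetyltransferases take the acetyl group from acetyl-CoA, and most of them work inside large complexes whose other subunits choose the site. In oligodendrocyte progenitors, as in other dividing cells, these enzymes serve as coactivators of transcription, while histone deacetylases remove the marks and are needed for differentiation. The peaks described below show where the mark lay on the enzymes' own genes, which is not a measure of how much enzyme the cells held.

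The lists held 9097, 31189 and 7353 peaks in neonatal replicates 1, 2 and 3 and between 72278 and 77002 in the adult replicates. A promoter peak was one that the authors classed as promoter, within 3000 bp of an annotated transcription start. Of 18548 genes with such a peak in any library, 34.4%, 73.9% and 30.3% had one in the neonatal replicates and 81.5% to 83.6% in the adult replicates. Neonatal replicate 2 stood apart from the other neonatal libraries, so results that rest on it are given with and without it, and the main comparisons of covered length and of genes with a peak were repeated on the 7353 strongest peaks of every library. Read depth is unknown, since the files give no read counts. Of 8 progenitor markers, 7 or 8 had a promoter peak in each neonatal library and 6 or 7 in each adult library. Summed over these markers, promoter peaks covered 7352, 21265 and 3292 bp in neonatal replicates and 36536, 42459 and 54004 bp in adult replicates. Of 8 markers of mature oligodendrocytes, 1 or 2 had one in each neonatal library and 8 in each adult library, and the promoter length covered by peaks over that list was 435 to 2278 bp against 44892 to 69436 bp. Among the 7353 strongest peaks, 8, 7 and 7 progenitor markers had one in neonatal replicates and 4 in each adult replicate. The mature markers then numbered 1 in each neonatal replicate and 4, 6 and 6 in adult replicates. Of 8 microglial markers, 0 had a promoter peak in any neonatal library and 1 in each adult library. The fibroblast list, whose cells can also express Pdgfra, had 0, 4 and 0 of 8 in neonatal and 2, 3 and 2 in adult replicates. Lists of neuronal, astrocyte and endothelial markers had at most 5, 6 and 2 of 8 in any library. Covered promoter length summed over the progenitor list and over the mature list was thus greater in every adult library, as over the acetyltransferase genes. The part of these markers in the values below was not tested. The neuronal, astrocyte and fibroblast counts overlapped between the ages. Endothelial counts did not, with 0, 1 and 0 of 8 in neonatal replicates and 2 in each adult replicate. In bulk chromatin, more cells with the mark and more mark per cell cannot be told apart.

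The promoter sequences of 9 of the 10 members were in the RefSeq table for GRCm38.p6, as 13 windows of 300 bases that run from 250 bases before a start to 50 after it. The 5 printed here were chosen because peaks lay on them in different ways. Kat2b is the member whose covered promoter differed most with age, Kat6b was covered in every library, Ep300 was covered in every library although the authors gave some of its peaks to another gene, and Kat7 and Hat1 were the members with the least covered promoter in adult cells. Capitals mark matches, on either strand, to the 6 motifs searched, which are the CCAAT box, the GC-box core GGGCGG, the cyclic AMP response element TGACGTCA, the E-box CACGTG, the ETS-type motif CCGGAAG and the NRF-type motif GCGCATGCG. None of the 6 holds another of them.
Kat2b, chr17:53566721-53567020, plus strand: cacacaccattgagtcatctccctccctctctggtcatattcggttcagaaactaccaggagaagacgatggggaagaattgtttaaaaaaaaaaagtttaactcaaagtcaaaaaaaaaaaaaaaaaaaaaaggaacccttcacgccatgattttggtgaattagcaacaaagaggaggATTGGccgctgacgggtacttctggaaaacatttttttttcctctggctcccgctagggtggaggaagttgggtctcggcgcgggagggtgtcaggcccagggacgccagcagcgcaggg
Kat6b, chr14:21499520-21499819, plus strand: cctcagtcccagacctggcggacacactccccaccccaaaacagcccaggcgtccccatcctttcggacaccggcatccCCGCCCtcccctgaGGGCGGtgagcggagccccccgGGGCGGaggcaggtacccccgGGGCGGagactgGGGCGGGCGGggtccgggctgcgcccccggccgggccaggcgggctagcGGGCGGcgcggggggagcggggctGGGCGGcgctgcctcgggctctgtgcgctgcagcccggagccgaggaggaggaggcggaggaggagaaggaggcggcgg
Ep300, chr15:81585964-81586263, plus strand: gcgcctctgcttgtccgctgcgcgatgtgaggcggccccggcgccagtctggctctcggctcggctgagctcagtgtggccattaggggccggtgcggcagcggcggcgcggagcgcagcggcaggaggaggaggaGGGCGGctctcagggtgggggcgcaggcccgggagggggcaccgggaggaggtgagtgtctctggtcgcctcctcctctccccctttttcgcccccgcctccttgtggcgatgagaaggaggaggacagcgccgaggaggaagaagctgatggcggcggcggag
Kat7, chr11:95310197-95310496, minus strand: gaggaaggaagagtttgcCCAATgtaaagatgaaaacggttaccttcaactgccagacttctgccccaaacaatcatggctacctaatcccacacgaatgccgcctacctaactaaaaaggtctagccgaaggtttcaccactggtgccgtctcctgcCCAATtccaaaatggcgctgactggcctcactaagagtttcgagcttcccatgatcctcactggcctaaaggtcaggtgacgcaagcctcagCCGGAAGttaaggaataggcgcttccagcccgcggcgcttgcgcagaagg
Hat1, chr2:71389010-71389309, plus strand: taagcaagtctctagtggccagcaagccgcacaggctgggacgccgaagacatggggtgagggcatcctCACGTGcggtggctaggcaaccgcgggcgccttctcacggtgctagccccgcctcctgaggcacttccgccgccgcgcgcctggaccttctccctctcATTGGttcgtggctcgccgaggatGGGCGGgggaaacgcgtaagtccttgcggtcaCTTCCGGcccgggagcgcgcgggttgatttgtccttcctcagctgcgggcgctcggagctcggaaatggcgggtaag

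On the Kat2b window, neonatal peaks covered only the last bases: 46, 50 and 68 of 300 in replicates 1, 2 and 3, against all 300 in each adult replicate. All 300 bases of the Kat6b window lay under peaks in all 6 libraries. Peaks covered 133, 300 and 122 bases of the Ep300 window in neonatal replicates and 300 in each adult replicate. The Kat7 window was nearly bare, with 0 bases in each neonatal replicate and 11, 0 and 24 in adult replicates, and the peaks given to Kat7 lay mostly downstream of it. The Hat1 window had 0 bases in each neonatal replicate and 42, 4 and 121 in the adult ones.

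The members' 13 windows had a median GC content of 57.0% and a median observed-to-expected CpG ratio of 0.734, against 52.7% and 0.384 over 32851 promoters of the table. GGGCGG was found in 8 of the 13 windows and in 35.7% of all promoters of the same length. CCAAT was found in 6 of 13 and in 37.4% of all, and CCGGAAG in 4 of 13 and in 8.86% of all. CACGTG was found in 2 of 13 windows, those of Hat1 and Kat5, and in 7.15% of all promoters. Neither the response element TGACGTCA nor the NRF-type motif was found in these windows (0 of 13 each), and they were found in 1.79% and 1.75% of all promoters. Matches are descriptions of letters, and the 2 windows of Kat6b overlap.

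Ep300 and Crebbp encode p300 and CBP, large paired coactivators with a bromodomain that acetylate many histone lysines. Ep300 spans chr15:81585397-81652077 on the plus strand (GRCm38, the authors' coordinates) and Crebbp spans chr16:4081328-4213997 on the minus strand. Promoter peaks given to Ep300 covered 0, 1354 and 153 bp in neonatal replicates 1, 2 and 3 and 1449, 1743 and 1446 bp in adult replicates. Those values place neonatal replicate 2 just under the adult libraries and the other neonatal libraries far below. Part of this gap lay in the authors' gene assignment. In neonatal replicates 1 and 3 a strong peak just downstream of the Ep300 start in the authors' coordinates was assigned to Gm23880, a small gene that lies there. These were a 662 bp peak at chr15:81585435-81586096, with an authors' fold enrichment of 10.2, and a 562 bp peak at chr15:81585506-81586067, with a fold enrichment of 12.4. RefSeq places the start of Ep300 further on, at chr15:81586209, and both peaks lie upstream of that base.

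Counted by position, whichever gene the authors named, peaks within 3000 bp of the Ep300 start covered 662, 1764 and 715 bp in neonatal replicates and 1846, 2242 and 2081 bp in adult replicates. By position, then, Ep300 was marked in 3 of 3 libraries at each age, and all adult values still lay above all neonatal ones. The position count also took in an upstream peak that the authors gave to 1110025M09Rik, present in neonatal replicate 2 and in all adult replicates. Crebbp needed no such change. Its promoter peaks covered 887, 1240 and 803 bp in neonatal and 1832, 1640 and 1883 bp in adult replicates, a ratio of means of 1.83. In neonatal replicates 1 and 3 and in adult replicate 2 Crebbp had 2 peaks, 1 on each side of the start. In neonatal replicate 2 the downstream one of its 2 peaks reached across the start, and in adult replicates 1 and 3 a single peak ran across it.

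Kat2a (GCN5) and Kat2b (PCAF) encode the paired GNAT-family enzymes of the SAGA and ATAC coactivator complexes. Kat2a is a short gene at chr11:100704746-100712465 on the minus strand. Its promoter peaks covered 168, 489 and 243 bp in neonatal and 929, 941 and 1149 bp in adult replicates, a ratio of means of 3.35. Of peaks given to Kat2a, each neonatal library had 1, just downstream of the start, and each adult library had a further one upstream of it. Further upstream, within 3000 bp, the authors gave peaks to Hspb9 in neonatal replicates 1 (180 bp) and 2 (343 bp) and in all adult replicates. By position Kat2a had 348, 832 and 243 bp in neonatal and 1256, 1498 and 1626 bp in adult replicates. The merged upstream region, chr11:100712615-100713114, held peaks in 0 of 3 neonatal and 3 of 3 adult libraries.

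Kat2b, at chr17:53566971-53672720 on the plus strand, was the member with the largest difference. Its promoter peaks covered 646, 769 and 642 bp in neonatal replicates and 5122, 5843 and 6598 bp in adult replicates. The lowest adult value was 6.66 times the highest neonatal one, and the ratio of means was 8.54. The neonatal libraries were close to each other, neonatal replicate 2 included, so this gap was hardly changed by leaving that library out: the difference was 5169 bp with it and 5210 bp without it. Each neonatal library had 1 promoter peak at Kat2b and each adult library had 6.

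The Kat2b values came from different places along the gene. At the main start a single peak was 646, 769 and 642 bp wide in neonatal replicates and the widest peak was 2874, 3516 and 3809 bp in adult replicates. Further adult promoter peaks lay within 3000 bp of annotated internal starts, among them chr17:53586716-53588284, a region of 1569 bp with peaks in 0 of 3 neonatal and 3 of 3 adult libraries. The RefSeq window at one internal start, chr17:53583876-53584175, had no base under a peak in any library, although peaks lay a little downstream of it in adult cells. With promoter peaks limited to within 1000 bp of a start, the Kat2b difference was 3208 bp, and with the 7353 strongest peaks per library it was 2714 bp. Among 3996 genes with a promoter peak in every library, 94.4% had a smaller ratio of adult to neonatal promoter length than Kat2b, and 93.2% had a shorter adult promoter length.

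**Figure D1:**
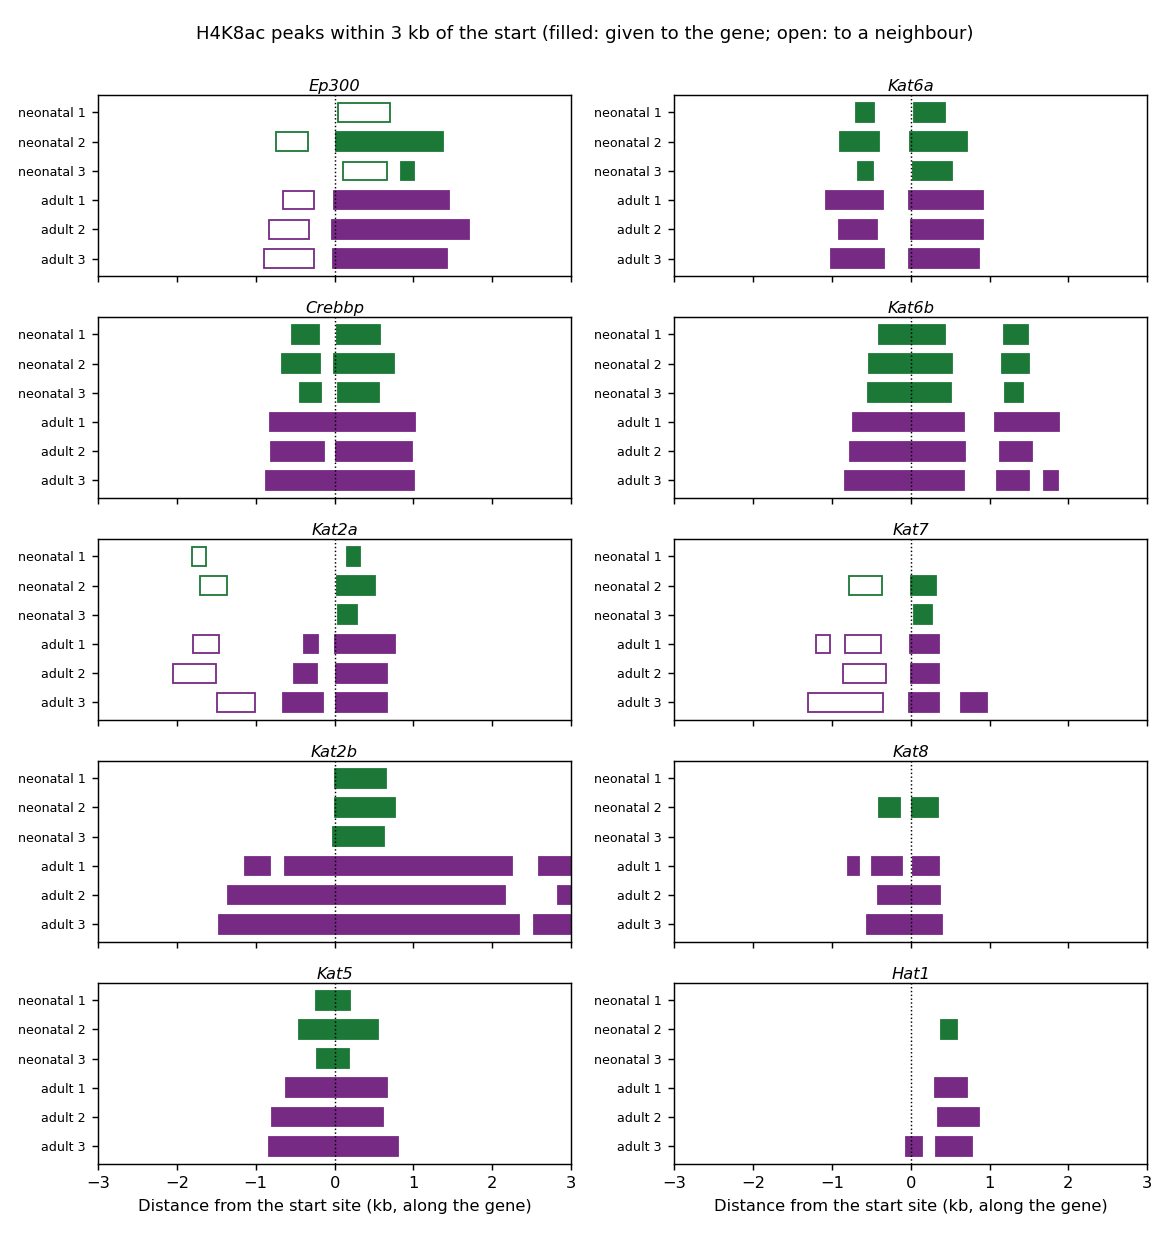
Peaks within 3 kb of the start of each gene's longest listed transcript (dotted line), with the distance in kb along the gene on the x axis and 1 row per library (green neonatal, purple adult). Filled boxes were given to the gene by the authors and open boxes to a neighbour: at Ep300 all 6 libraries had a peak at the start or just downstream of it, and at Kat2b adult peaks spread to both sides of a peak that was at most 769 bp wide in neonatal cells.

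Kat5, Kat6a, Kat6b, Kat7 and Kat8 encode the MYST family, which includes several enzymes that act on the H4 tail. Kat5 (TIP60), the catalytic subunit of the NuA4 complex, lies at chr19:5603014-5610035 on the minus strand. Its single promoter peak was 422, 1005 and 415 bp wide in neonatal and 1271, 1411 and 1636 bp wide in adult replicates. The peak spanned the start in all 6 libraries, and neonatal replicate 2 lay between the other neonatal libraries and the adult ones.

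Kat6a (MOZ) and Kat6b (MORF) encode paired enzymes that act with BRPF scaffold proteins and mainly target histone H3. Kat6a, at chr8:22859535-22943259 on the plus strand, had promoter peaks over 621, 1214 and 686 bp in neonatal and 1665, 1387 and 1560 bp in adult replicates. Each of the 6 libraries had 2 promoter peaks there, 1 before the start and 1 from the start on. Kat6b, at chr14:21499770-21672071 on the plus strand, had 1149, 1397 and 1279 bp in neonatal and 2213, 1871 and 2080 bp in adult replicates. It was the longest promoter coverage among the members in neonatal replicates 1, 2 and 3, and its ratio of means, 1.61, was the smallest of the 10. A first peak crossed the Kat6b start and a second lay at another listed start of the gene, in all 6 libraries.

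Kat7 (HBO1), which acetylates H3 and H4 with JADE or BRPF partners and serves in DNA replication, lies at chr11:95274259-95310201 on the minus strand. Promoter peaks given to it covered 0, 318 and 225 bp in neonatal and 360, 352 and 703 bp in adult replicates, so that the lowest adult value was 1.11 times the highest neonatal one. The authors gave the nearby upstream peaks to Gm11520 in neonatal replicate 2 and in all adult replicates. By position Kat7 had 0, 726 and 225 bp in neonatal and 1004, 901 and 1660 bp in adult replicates. Neonatal replicate 1 had no peak at Kat7 by either count. The difference of means for peaks given to Kat7 was 291 bp, and 175 bp without adult replicate 3.

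Kat8 (MOF), the H4-directed enzyme of the MSL and NSL complexes, lies at chr7:127912516-127925837 on the plus strand. Its promoter peaks covered 0, 594 and 0 bp in neonatal and 839, 791 and 948 bp in adult replicates. Neonatal replicate 2 was the only neonatal library with a Kat8 peak. Among the 7353 strongest peaks per library this turned: neonatal replicate 2 then held 331 bp and every other library 0, a difference of means of -110 bp, adult minus neonatal.

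Hat1, the type B enzyme that acetylates newly made histone H4 before it is built into chromatin, lies at chr2:71388958-71441622 on the plus strand. Its promoter peaks covered 0, 202 and 0 bp in neonatal and 406, 512 and 660 bp in adult replicates. These were weak peaks within their lists. The authors' fold enrichment of the best one was 3.13 in neonatal replicate 2, where 6.0% of that library's peaks ranked below it by p-value, and 7.19, 5.99 and 5.84 in the adult replicates. Among the 7353 strongest peaks per library none was at Hat1.

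Around the starts, the covered bases within 3000 bp were counted on each side, whichever gene the authors named. At Kat2b the mean over 3 libraries was 6.0 bp upstream and 680 bp downstream in neonatal cells, and 1256 bp upstream and 2601 bp downstream in adult cells. Neonatal coverage at Kat2b thus lay almost wholly downstream, and adult coverage lay on both sides. Kat6a had 309 bp upstream and 531 bp downstream in neonatal cells and 643 bp and 895 bp in adult cells. At Kat5 both sides were nearly equal at each age, with 302 bp and 312 bp in neonatal and 746 bp and 693 bp in adult cells. Hat1 lay almost wholly downstream, with 0 bp upstream and 67.3 bp downstream in neonatal cells and 21.7 bp and 504 bp in adult cells.

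**Figure D2:**
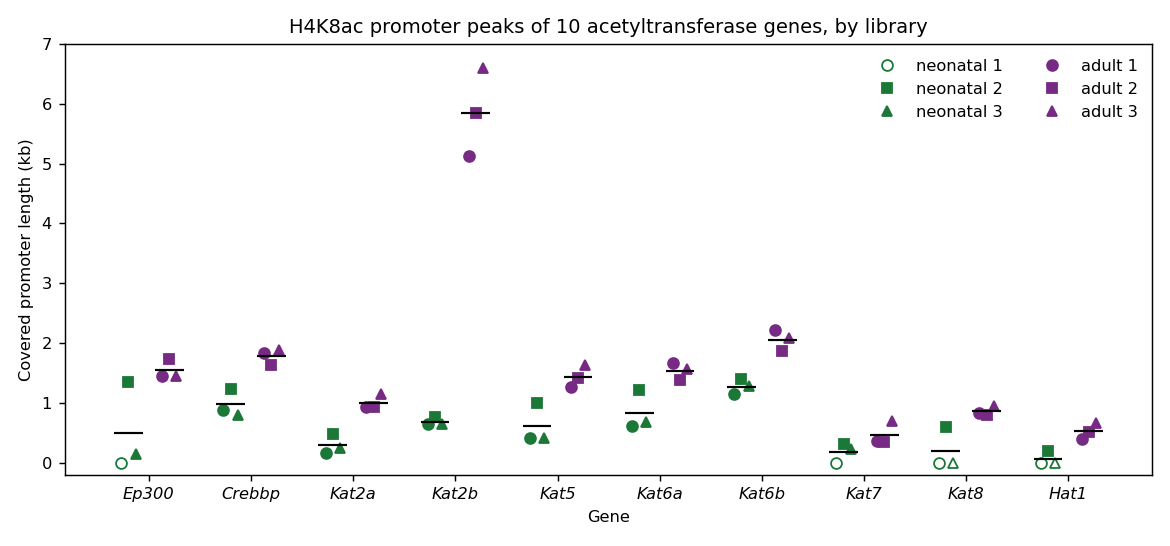
Promoter length covered by H4K8ac peaks (y axis, kb) for each gene (x axis), with 1 point per library (green neonatal, purple adult, open at 0) and a line at the mean of 3 libraries. All adult points lie above all neonatal points at each of the 10 genes, narrowly at Ep300 and Kat7 and by the widest margin at Kat2b, whose adult values run from 5122 to 6598 bp.

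At each of the 10 members, every adult library had more covered promoter length than every neonatal library. The same held for 60.1% of the 18548 genes with a promoter peak, so this direction was the common one in these lists. The reverse order, lower in every adult library, was seen at 0 members and at 0.399% of genes. The 10 of 10 also held without neonatal replicate 2, when the share over all genes was 71.6%. Counted by position, 10 of 10 members and 69% of 18774 genes were higher in every adult library. With lists of equal length, the 7353 strongest peaks per library, it was 8 of the 9 members with a peak and 35% of 9904 genes, while 0 members and 4.67% of genes were lower in every adult library. The 8 were all members other than Kat8 and Hat1.

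In adult cells the members fell into levels by covered promoter length. Kat2b stood alone at 5854 ± 738 bp (SD, n = 3). Kat6b followed at 2055 ± 172 bp, then Crebbp at 1785 ± 128 bp, Ep300 at 1546 ± 171 bp, Kat6a at 1537 ± 140 bp and Kat5 at 1439 ± 184 bp. Each of these overlapped the next in its range over libraries. Kat2a at 1006 ± 124 bp and Kat8 at 859 ± 80.5 bp overlapped each other and lay below Kat5, and Hat1 at 526 ± 128 bp and Kat7 at 472 ± 200 bp overlapped each other and lay lowest. In neonatal cells the order began with Kat6b at 1275 ± 124 bp and Crebbp at 977 ± 232 bp and ended with Hat1 at 67.3 ± 117 bp, and Kat2b was the fourth at 686 ± 72.2 bp.

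Members with a promoter peak numbered 6, 10 and 8 in neonatal replicates and 10, the most possible, in each adult replicate. The shares of the 18548 genes were 34.4%, 73.9% and 30.3% in neonatal and 81.5% to 83.6% in adult replicates, so the members' counts moved with those of all genes. Ep300, Kat7, Kat8 and Hat1 were missing from neonatal replicate 1 and Kat8 and Hat1 from replicate 3. The ages overlapped, with 8 ± 2 against 10 ± 0 members (SD, n = 3 each), a difference of 2 (exact two-sided permutation test, p = 0.4; Benjamini-Hochberg adjusted p = 0.4 over 6 quantities). Without neonatal replicate 2 the difference was 3 and the ages did not overlap (exact permutation p = 0.1), and without neonatal replicate 1 it was 1. By position the neonatal counts were 7, 10 and 8. Promoter peaks in all 6 libraries were found at 6 of 10 members, Crebbp, Kat2a, Kat2b, Kat5, Kat6a and Kat6b, against 21.5% of genes. Among the 7353 strongest peaks, 5, 9 and 8 members had one in neonatal replicates and 8 in each adult replicate, a difference of 0.667, while the share of all genes was 29.2% to 34.1% per library.

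Over the 10 genes together, promoter peaks covered 3893, 8582 and 4446 bp in neonatal and 16086, 16491 and 18663 bp in adult replicates. The ratio of geometric means was 3.22, adult over neonatal, which is 1.69 on the log2 scale (p = 0.1 by an exact two-sided permutation test, which with 3 against 3 libraries can give no smaller value; adjusted p = 0.12 over 6 quantities). On that log2 scale it was 2.03 without neonatal replicate 2 and 1.32 among the 7353 strongest peaks. The covered length thus differed by more than the spread between libraries, but this exact test could not reach 0.05 with 3 libraries an age.

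The members' part of each library's covered promoter length went the other way. It was 0.151%, 0.0838% and 0.211% in neonatal and 0.0734%, 0.0745% and 0.0632% in adult replicates, and every adult value lay below every neonatal one. The means were 0.148% ± 0.0637 and 0.0704% ± 0.00619 (SD, n = 3 each). The difference was -0.0781 percentage points (exact two-sided permutation test, p = 0.1 and adjusted p = 0.12). Without neonatal replicate 2 the difference was -0.11 and without neonatal replicate 3 it was -0.0468, and among the 7353 strongest peaks the shares were 0.165%, 0.16% and 0.211% against 0.141%, 0.143% and 0.107%, a difference of -0.0482. The covered promoter length of the other genes together was thus more different between the ages, as a ratio, than that of these 10. For the 6 members with a promoter peak in every library, the median ratio of adult to neonatal length was 2.09 (1.61 to 8.54), and over the 3996 genes of that kind it was 2.61 (quartiles 1.96 and 3.72). Kat6b, Crebbp, Kat6a and Kat5 lay below that median and Kat2a and Kat2b above it.

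**Figure D3:**
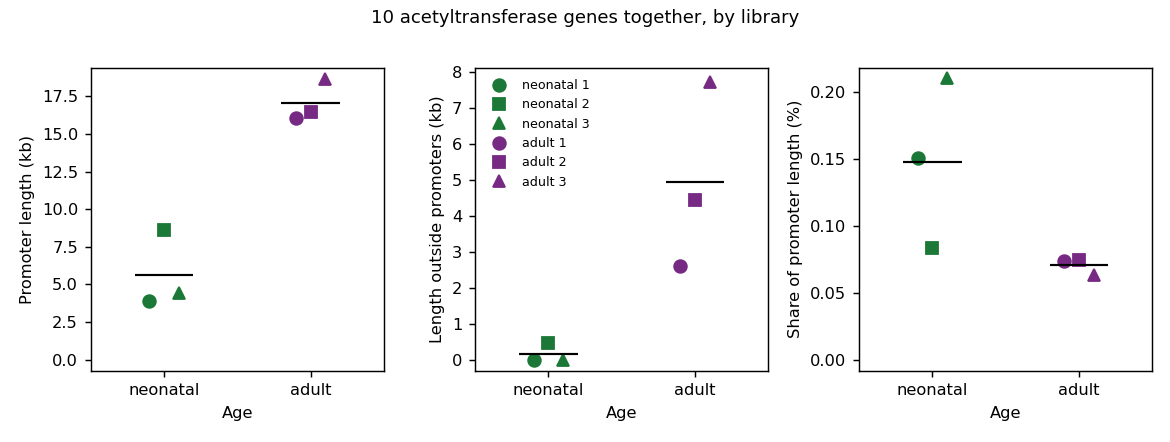
Values of the 10 genes together for each library (points; green neonatal, purple adult; lines are means of 3): promoter length and length outside promoters under peaks, in kb, and the 10 genes' share of all covered promoter length, in percent. Both lengths were greater in every adult library, while the share was lower in every adult library, from 0.0632% to 0.0745%.

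Outside promoters, peaks given to the members numbered 0, 2 and 0 in neonatal and 12, 15 and 20 in adult replicates, a difference of means of 15 (exact two-sided permutation test, p = 0.1 and adjusted p = 0.12). They covered 0, 460 and 0 bp in neonatal and 2604, 4458 and 7744 bp in adult replicates, a difference of means of 4782 bp (exact two-sided permutation test, p = 0.1; adjusted p = 0.12). All of them lay at Kat2b, Kat6a, Kat6b or Crebbp, the 4 longest members, from 83.7 to 172.3 kb, and the other 6 members had none in any library. Of these 4 genes, 3 had more such length in every adult than in every neonatal library, against 51.8% of 12759 genes with a peak outside promoters. The exception was Crebbp, with 154, 0 and 574 bp in adult replicates and none in neonatal ones. Among the 7353 strongest peaks per library the members had 0 peaks outside promoters in all 6 libraries.

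Kat6a had the longest mean coverage of this kind, with 906, 2339 and 2950 bp in adult replicates and 0 bp in each neonatal replicate. Most of it lay toward the 3′ end of the gene. A region of 1461 bp at chr8:22934709-22936169 and one of 475 bp at chr8:22925951-22926425 each had peaks in 0 of 3 neonatal and 3 of 3 adult libraries. Kat2b had 529, 954 and 2716 bp outside promoters in adult replicates, mostly in the intron downstream of its start, and 0 bp in neonatal ones. Kat6b was the only member with such peaks in a neonatal library: 460 bp in neonatal replicate 2, against 1015, 1165 and 1504 bp in adult replicates. A region of 672 bp at chr14:21659086-21659757 in Kat6b had peaks in 0 of 3 neonatal and 3 of 3 adult libraries.

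Merged over libraries, the members' peaks formed 51 regions, 24 of them promoter regions. Peaks were found in all 6 libraries at 9 of the 51, and the share of all regions with that pattern is not given here. In all 3 adult and 0 neonatal libraries they were found at 6 regions, 3 of these outside promoters, against 20.4% of the 98027 regions of the series. The 6 were the upstream region of Kat2a, 2 regions of Kat2b, 2 of Kat6a and 1 of Kat6b. No member region had peaks in all neonatal and 0 adult libraries, a pattern that 39 regions of the series showed. The only member region found in neonatal cells alone was chr14:21546787-21547036, in Kat6b, with a peak in neonatal replicate 2. The count of 6 depended on single libraries: it was 14 without adult replicate 1, 10 without adult replicate 2 and 0 among the 7353 strongest peaks.

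**Figure D4:**
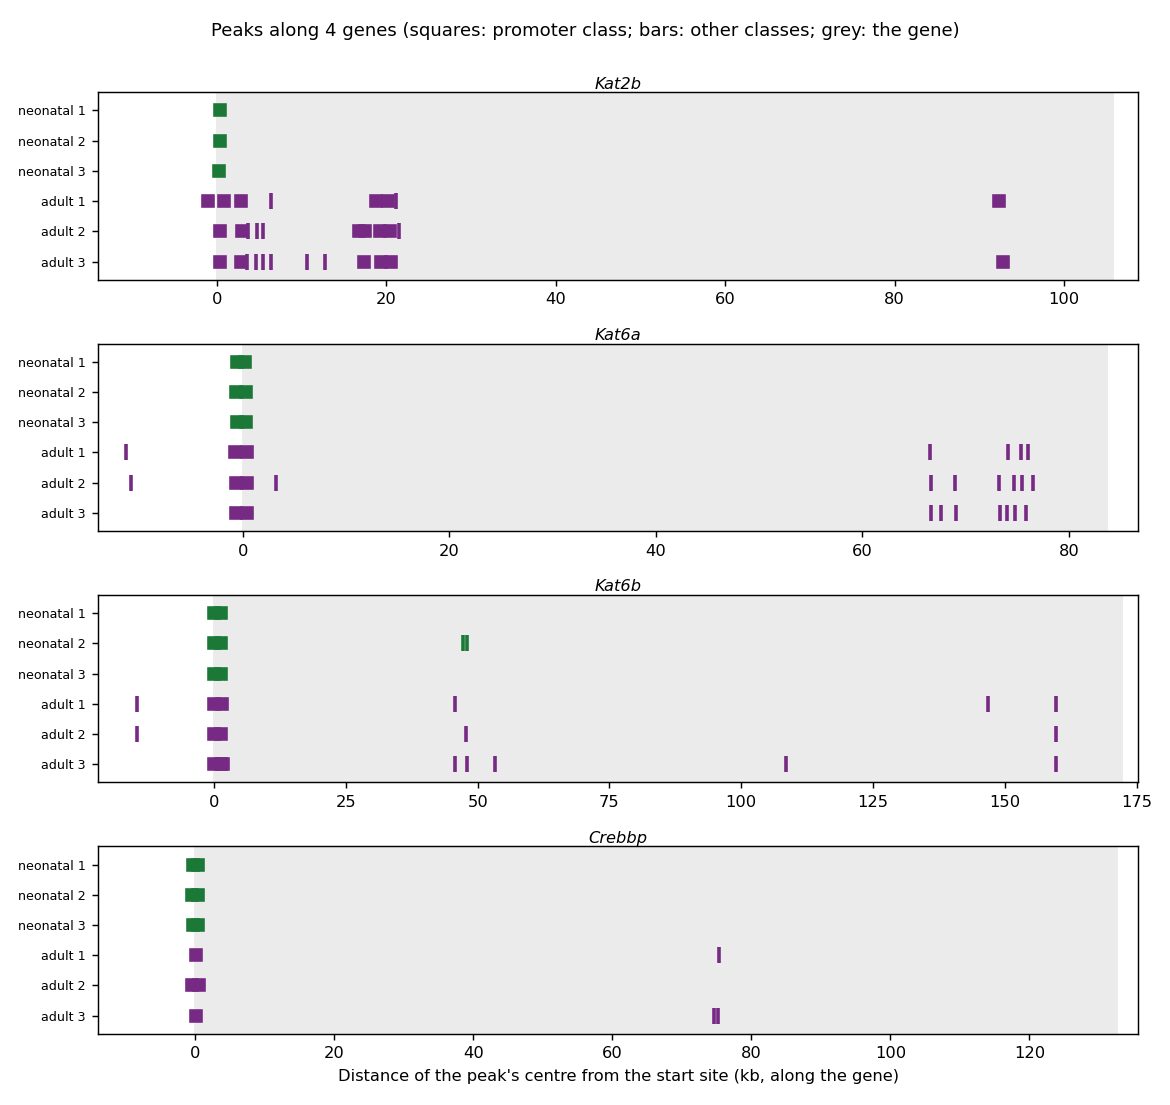
Centres of all peaks given to Kat2b, Kat6a, Kat6b and Crebbp, by distance from the start (x axis, kb along the gene) with 1 row per library (green neonatal, purple adult); squares are promoter peaks, bars are other peaks and grey is the gene. Neonatal peaks lie at the start except for 2 in Kat6b in replicate 2, while adult peaks also lie further along Kat2b and near the 3′ end of Kat6a.

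The authors' deposited table of differential sites gives for each site a log2 fold change with its adjusted p, holds no value per library, and lists only sites whose adjusted p is under 0.05. The file states no direction. A value above 0 was taken to mean more H4K8ac in the adult, because positive sites of the authors' deposited table overlapped peaks in 85.0% to 96.7% of cases in adult and 10.3% to 27.8% in neonatal libraries. Of 43888 sites in the authors' deposited table, 43634 were positive. The members had 29 sites there, 16 in promoters and 13 elsewhere, and 0 were negative. All 10 members had a promoter site higher in adult cells in the authors' deposited table, against 64.5% of the 18548 genes.

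Per gene, the promoter site of smallest p was taken. In the authors' deposited table its log2 fold change was 1.2 at Ep300 (adjusted p = 0.00248), 1.68 at Crebbp (adjusted p = 0.00014) and 1.4 at Kat2a (adjusted p = 0.00368). For the MYST genes the authors' deposited table gave 1.02 at Kat5 (adjusted p = 0.0277), 1.62 at Kat6a (adjusted p = 0.000264), 1.16 at Kat6b (adjusted p = 0.00458), 1.52 at Kat7 (adjusted p = 0.00516) and 1.3 at Kat8 (adjusted p = 0.0124). These sites lay at or near the start of each gene. At Hat1 the value in the authors' deposited table was 2.15 (adjusted p = 0.000652), larger than at most members although its peaks were weak. At Kat2b the site of smallest p in the authors' deposited table lay at chr17:53587242-53587641, near an internal start, with a log2 fold change of 2.87 (adjusted p = 1.24e-06). The site at the main Kat2b start, chr17:53567085-53567484, had 1.61 (adjusted p = 0.00013) in the authors' deposited table, so the value there was smaller than at the sites further into the gene. Of the Kat2b sites within 3000 bp of a listed start, this one had the smallest adjusted p.

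The median over the 10 members was 1.46 in the authors' deposited table, against 1.77 (quartiles 1.41 and 2.55) over the 12082 genes with a promoter site. All members except Kat2b and Hat1, 8 of 10, lay below that median of the authors' deposited table. Kat5 was the lowest, with 3.15% of genes below it, and Kat2b the highest, with 79.9% below it. That place of Kat2b rests on a site centred 3315 bp from the nearest listed start. In the authors' deposited table the site at the main Kat2b start, at 1.61, lay below the median of 1.77. The other promoter sites of Kat2b, from 2.64 to 3.03, lay above it. Sites outside promoters had larger values: in the authors' deposited table their median was 3.18 over the 13 member sites and 2.85 over all such sites. The largest was a site of Kat6a, chr8:22934738-22935137, with a log2 fold change of 6.62 (adjusted p = 3.64e-08), above 99.4% of the sites of the authors' deposited table. The peaks on this site were classed as intron in adult replicates 1 and 2, and as exon in adult replicate 3, where the peak was 1459 bp wide. An intronic site of Kat2b, chr17:53571595-53571994, had 5.66 (adjusted p = 7.72e-06) and one of Kat6b, chr14:21484877-21485276, had 4.37 (adjusted p = 8.64e-05) in the authors' deposited table.

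**Figure D5:**
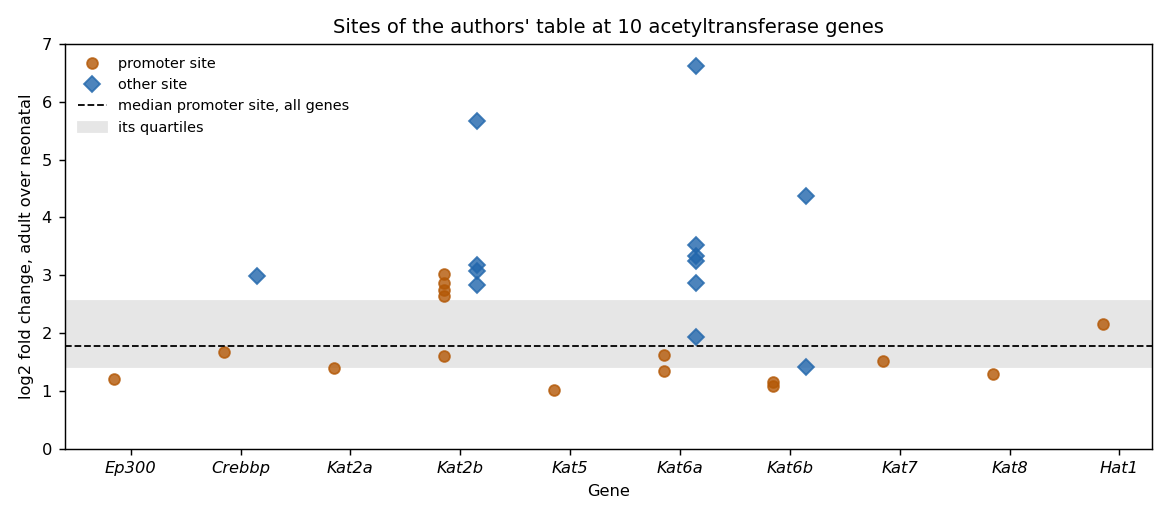
Log2 fold change, adult over neonatal (y axis), of every site of the authors' deposited table at each gene (x axis), as circles for promoter sites and diamonds for other sites; the dashed line and grey band are the median, 1.77, and quartiles of the promoter site of smallest p over 12082 genes. Promoter sites of most members lie at or below the dashed line, and the highest points are sites outside the promoters of Kat6a, Kat2b and Kat6b.

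Peaks at the members' promoters differed in their rank within the lists. The authors' fold enrichment of the best promoter peak at Kat2b was 9.61, 14.4 and 5.81 in neonatal replicates, where 99.0%, 98.5% and 88.3% of the peaks of each list ranked below it by the authors' p-value, and 21.7, 23.9 and 20.2 in adult replicates. At Kat6b it was 8.49, 16.5 and 7.68 in neonatal and 18.6, 14.5 and 17.2 in adult replicates, with 96.9% or more of each list below it in all 6 libraries. The fold enrichment at Kat6a was 7.82, 15.3 and 8.08 in neonatal and 20.5, 20.9 and 28.9 in adult replicates. At Kat5 it was 5.15, 16.7 and 8.09 in neonatal and 19.2, 15.1 and 19 in adult replicates, so that neonatal replicate 2 lay within the adult range. Kat8 had the lowest adult values after Hat1, at 7.49, 7.26 and 9.87, with 6.45 in neonatal replicate 2. At Crebbp it was 6.12, 10.5 and 6.37 in neonatal and 33.9, 18.6 and 18.7 in adult replicates. Kat2a differed from these: its best peak ranked above 14.5%, 90.5% and 41.1% of the peaks of the neonatal lists and above 93.5% to 96.6% of the adult lists. At Ep300 and Kat7, which had no peak of their own in neonatal replicate 1, the best peak ranked above 99.2% and 95.0% of the list of neonatal replicate 2 but above only 3.32% and 22.1% of that of replicate 3, and above 97.1% or more of each adult list. The stronger Ep300 peak of replicate 3 was the one given to Gm23880. Ranks come from lists of different lengths and show no change by themselves.

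The subunits that work with these enzymes were followed as 60 partner genes. Of these, 35, 54 and 35 had a promoter peak in neonatal replicates and 57, 56 and 56 in adult replicates, a difference of means of 15 (exact two-sided permutation test, p = 0.1 and adjusted p = 0.12). It was 21.3 without neonatal replicate 2 and 0 among the 7353 strongest peaks per library, where the counts were 34, 41 and 35 against 41, 36 and 33. More covered promoter length in every adult library was seen at 48 of the 60 and less at 0, beside the 60.1% of all genes given above. Of the 60 partners, 55 had a promoter site in the authors' deposited table, all of them higher in adult cells, beside 64.5% of the 18548 genes and 43634 of all 43888 sites. These sites had a median log2 fold change of 1.64, between that of the members and that of all genes.

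Among the 18 SAGA and ATAC partners of Kat2a and Kat2b, 14 had more promoter length in every adult library, and the counts of this and the following lists stand beside the 60.1% of all genes. Yeats2, an ATAC reader subunit, had 216, 615 and 232 bp in neonatal and 3059, 4434 and 6376 bp in adult replicates, and Mbip, another ATAC subunit, had the smallest log2 fold change of these partners in the authors' deposited table, 0.86. Supt7l, a SAGA subunit, had no peak of its own, but 1 neonatal and 3 adult libraries had a peak at its start that the authors gave to Slc4a1ap. Of the 15 NuA4 partners of Kat5, 11 were longer in every adult library. Morf4l2 had 0 bp in each neonatal replicate and 2163, 1682 and 4041 bp in adult replicates, with a log2 fold change of 4.86 in the authors' deposited table, whereas that of Vps72 was 1.08.

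Of the 9 BRPF, JADE and ING partners of Kat6a, Kat6b and Kat7, 8 were longer in every adult library. Jade1, a scaffold of Kat7 complexes, had 561, 1838 and 713 bp in neonatal and 6182, 6185 and 10090 bp in adult replicates, while Brpf1 had the smallest value of the list in the authors' deposited table, 1.34. Of the 10 MSL and NSL partners of Kat8, 9 were longer in every adult library. The largest log2 fold change among all partners in the authors' deposited table, 5.87, was at Msl1, the MSL scaffold, whose promoter peaks covered 1442, 2139 and 961 bp in neonatal and 2730, 2446 and 2894 bp in adult replicates, and the smallest of that list was 1.34 at Msl2. The 5.87 is the value of 1 site, that of smallest p, and need not hold for the whole promoter. Its distance from the Msl1 start is not given here. Phf20, an NSL subunit, had no peak within 3000 bp of its start in any library.

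Of the 8 partners of Ep300, Crebbp and Hat1, 6 were longer in every adult library. In the authors' deposited table their log2 fold changes ran from 1.12 at Cited2, a CBP-binding regulator, to 1.71 at Ncoa3, a nuclear receptor coactivator. Of 7 genes for the supply of acetyl-CoA, 5 were longer in every adult library, beside the 60.1% of all genes. Their values in the authors' deposited table ran from 1.28 at Pdha1 to 1.87 at Pdhb, which encode subunits of pyruvate dehydrogenase. Slc25a1, the mitochondrial citrate carrier, had no peak within 3000 bp of its start in any library.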

How the data were processed

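The 6 H4K8ac libraries have separate peak lists. Each peak in the authors' deposited lists carries a score, a fold enrichment (a linear ratio), the −log10 p-value and −log10 q-value, the nearest gene and a position class. The largest q-value per list was 0.0427 to 0.0489. The authors' deposited table of differential sites gives log2 fold changes, p-values and adjusted p-values. Each site was given the gene and position class of the peak, from any list, that shared most bases with it. The submitters' processing notes name GRCm38, Trim Galore, Bowtie2 2.4.5, SAMtools, deepTools, MACS2, DiffBind and ChIPseeker, without their roles. Use of the inputs is not given in the sources used here.

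The covered length was the sum of the widths of a gene's peaks, and depends on where the authors' q-value limit falls on a peak and on the gene they named. Peaks overlapping by at least 1 bp were merged into regions. File starts count from 0 and were converted to count from 1. Differences between ages were tested by exact permutation, two-sided, of the library labels (20 arrangements), with Benjamini-Hochberg adjustment over 6 quantities. The summed promoter length was tested as log2. The labels do not say whether replicate numbers pair the libraries. Correlations of the deviations of same-numbered libraries were -0.015, 0.027 and 0.003 over 3996 genes. These show no pairing in covered length, but cannot tell whether such libraries were prepared together. The strongest peaks were ranked by the authors' p-value. Scripts were tested on simulated data and used Python 3.11.15, numpy 2.4.6, pandas 2.3.3 and scipy 1.17.1. All 10 members are named. From each partner list the genes highest and lowest in the authors' deposited table by promoter log2, and those with no promoter peak, are named. The members and lists were chosen with earlier results of these data known. The alternatives were a q-value limit of 0.005, an equal number of strongest peaks, promoter peaks by position or within 1000 bp, other merging rules, a replicate block and leaving out each library.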

Additional observations from a re-analysis of the deposited data

How the results depend on the processing

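Of 105 repeats of the main results under other settings, 99 stayed and 6 moved. Staying meant the same direction for tested quantities. For untested counts of members and regions, and for the members' median difference in promoter length, it meant a value within 1.5 times. The side of the threshold was no check, because the exact permutation tests could give no p below 0.1. The tested difference in members with a promoter peak counted as staying, although it was 2 and became 0.667 with an equal number of strongest peaks. The 99 is thus mainly a count of unchanged directions. With an equal number of strongest peaks per library, the differences in peaks outside promoters (15), in length outside promoters (4782 bp) and in partner genes with a promoter peak (15) were 0. The number of member regions with peaks in all adult and no neonatal libraries, 6, was also 0 under that setting. Leaving out each library in turn gave 6 to 14, with 14 without adult replicate 1 and 10 without adult replicate 2. For single members' promoter lengths, staying meant the same direction and a change smaller than the larger of that gene's neonatal and adult SDs. Of 100 such repeats, 93 stayed, 6 moved and 1 turned: Kat8, at -110 bp with an equal number of strongest peaks. The difference at Hat1 was 0 under that setting. The cause of these moves was not tested. Members with a promoter site higher in adult cells in the authors' deposited table numbered 7 at an adjusted p under 0.005, against 10 at its own limit. The share of all genes is known here only at that table's own limit, 64.5% of 18548, so the 7 has no share beside it.

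With a replicate block the differences were the same, with exact sign-flip permutation p = 0.25, the smallest possible, for 5 quantities, among them the log2 ratio of promoter length, 1.69, and p = 0.5 for the number of members with a promoter peak. The labels do not say whether the numbers pair the libraries, so no conclusion is drawn from this block. With 3 libraries an age, these exact permutation tests could not reach 0.05. Read depth is unknown, and a missing peak means only that none passed the authors' limit.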
